A study of Mus musculus with 18 samples.

Results

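The 10 genes Gata4, Gata6, Nkx2-5, Tbx5, Tbx20, Hand2, Mef2a, Mef2c, Mef2d and Isl1 encode DNA-binding proteins of the gene program that builds and maintains the heart. They were taken as a fixed list of symbols, with no cut on a measured value, from the 21887 protein-coding genes of the gene table. The list was chosen with earlier results of these data known. Each gene was given a window that ran from 5000 bases before its lower coordinate to 5000 bases after its higher coordinate in GRCm38. Of the 152196 regions made by merging the peaks of all libraries, 38 touched one of the 10 windows.

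The DNA came from 18 male C57BL/6JR mice, 12 weeks old, with 1 library per mouse. In 15 of them the left anterior descending coronary artery was tied to cause a myocardial infarction (MI), with 3 mice killed at each of 5 times: 10 min, then 1 h, then 6 h, then 24 h, and last 72 h. The other 3 mice were the sham group, in which a suture was passed and the artery was not tied, and pentobarbital anaesthesia was part of the protocol for all mice. Cardiomyocytes are the labelled cell type and myocardium the labelled tissue, no step that separates cell types is described, and the sham mice are labelled 0 h. In such tissue a change in the methylation of a cell and a change in the mix of cells cannot be told apart.

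Methylated DNA immunoprecipitation sequencing (MeDIP-seq) pulls down sheared DNA with an antibody against methylated cytosine and sequences what was pulled down. A peak marks a place where methylated fragments pile up. The method needs several methylated CpG sites (a cytosine followed by a guanine) on a fragment, so a place without a peak may be unmethylated or may have few CpG sites. The score of a peak is the authors' own value and is used here to describe and rank peaks only.

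Several of the 10 proteins act together in the heart. The GATA zinc finger proteins, the homeobox protein Nkx2-5 and the T-box protein Tbx5 bind next to each other at regulatory sequences of contractile and ion handling genes. Hand2 is a basic helix-loop-helix protein of the right ventricle and outflow tract, and Isl1 is a LIM-homeobox protein of second heart field progenitors. The Mef2 proteins are MADS-box factors that respond to calcium-dependent kinases and histone deacetylases. CpG-rich promoters of developmental regulators are, as a rule, free of DNA methylation in somatic tissue, and methylation is often dense in gene bodies.

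Promoter sequences from RefSeq (GRCm38.p6), 250 bases before to 50 bases after a transcript start, were matched for 7 of the 10 genes and gave 9 windows of 300 bases, 3 of them for Mef2c. The 5 windows below are shown because they span the range of CpG number among these genes, and none of them lay under a peak in any of the 18 libraries. They are written 5′ to 3′ on the strand of the gene, in lower case, with each CG in capitals.
Isl1, chr13:116309639-116309938, minus strand: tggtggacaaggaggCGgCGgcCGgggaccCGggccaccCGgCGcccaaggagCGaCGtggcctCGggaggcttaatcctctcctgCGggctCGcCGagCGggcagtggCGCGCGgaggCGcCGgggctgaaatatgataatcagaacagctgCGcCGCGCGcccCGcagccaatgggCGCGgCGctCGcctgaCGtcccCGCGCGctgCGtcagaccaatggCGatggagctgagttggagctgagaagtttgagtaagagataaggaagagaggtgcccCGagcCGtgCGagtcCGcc
Mef2a, chr7:67372809-67373108, minus strand: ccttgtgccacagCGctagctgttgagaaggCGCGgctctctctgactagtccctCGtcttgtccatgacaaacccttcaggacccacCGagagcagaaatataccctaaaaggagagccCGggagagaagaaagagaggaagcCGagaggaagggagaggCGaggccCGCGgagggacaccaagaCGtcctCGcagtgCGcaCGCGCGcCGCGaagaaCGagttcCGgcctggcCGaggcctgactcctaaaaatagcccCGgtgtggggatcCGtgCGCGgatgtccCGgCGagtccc
Tbx20, chr9:24774254-24774553, minus strand: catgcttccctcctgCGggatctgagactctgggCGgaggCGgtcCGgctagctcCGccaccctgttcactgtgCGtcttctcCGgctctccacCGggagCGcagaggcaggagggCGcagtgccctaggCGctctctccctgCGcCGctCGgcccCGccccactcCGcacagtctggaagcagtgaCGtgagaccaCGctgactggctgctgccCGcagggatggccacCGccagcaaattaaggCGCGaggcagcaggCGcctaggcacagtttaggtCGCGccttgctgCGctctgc
Nkx2-5, chr17:26841516-26841815, minus strand: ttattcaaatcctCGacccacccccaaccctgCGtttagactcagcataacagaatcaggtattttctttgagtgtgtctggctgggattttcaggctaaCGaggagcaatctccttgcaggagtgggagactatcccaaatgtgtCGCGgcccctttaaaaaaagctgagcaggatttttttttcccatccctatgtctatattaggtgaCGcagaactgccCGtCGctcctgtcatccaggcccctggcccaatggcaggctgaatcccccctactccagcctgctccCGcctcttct
Mef2c, chr13:83503784-83504083, plus strand: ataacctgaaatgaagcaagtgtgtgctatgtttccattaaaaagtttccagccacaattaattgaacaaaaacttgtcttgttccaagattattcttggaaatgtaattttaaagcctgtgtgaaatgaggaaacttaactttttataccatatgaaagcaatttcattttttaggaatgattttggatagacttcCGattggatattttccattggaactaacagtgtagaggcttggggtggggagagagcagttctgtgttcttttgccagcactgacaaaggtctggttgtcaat

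The Isl1 window held 37 CpG sites, more than 92.7% of the 21263 promoters in the table. The Mef2a window held 27, that of Tbx20 26 and that of Mef2d, which is not printed, 24. Hand2 had 17 CpG sites, Nkx2-5 had 9, and the 3 Mef2c windows had 1, 10 and 4. The median of all promoters was 13. The 9 windows thus run from CpG-poor to CpG-rich, and a peak was found over none of them.

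Over all promoters, 6.15% had a peak in at least 1 library, and the share depended on CpG number. It was 4.76% with 0 to 2 CpG sites, 14.3% with 3 to 9, 6.06% with 10 to 19 and 1.16% with 20 or more. Windows like those of Isl1, Mef2a, Tbx20 and Mef2d were therefore rarely under a peak anywhere in the genome, so the lack of a peak there is the usual state of such a promoter in these lists. The same is true, to a lesser degree, of the other windows, since most promoters of every CpG class had no peak.

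**Figure D1:**
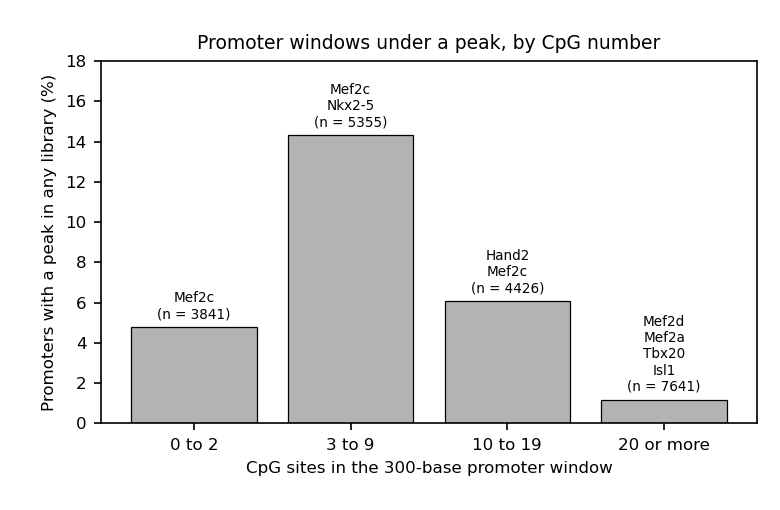
Share of promoter windows with a peak in any of the 18 libraries (vertical axis, percent), by the number of CpG sites in the 300-base window (horizontal axis). Gene names over a bar place the 9 windows of the 7 matched heart factors in their CpG class, n is the number of promoters in the class, and none of the 9 named windows had a peak.

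The distance from the promoter window to the nearest peak of any library ranged widely. It was 1.64 kb for the third Mef2c window, 3.7 kb upstream for Tbx20 and 4.83 kb for Hand2. For Mef2d it was 12.0 kb, for Nkx2-5 14.8 kb, for Isl1 21.4 kb and for Mef2a 31.9 kb. The first and second Mef2c windows were 71.2 kb and 51.6 kb from a peak.

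The promoter windows were searched on both strands for the letters that these protein families are known to bind. CTAAAAATA, the letters of a Mef2 site, was found once, in the Mef2a window printed above, and in 0.409% of all promoters. The letters GATAA, bound by zinc finger factors of this family, were found 2 times each in the windows of Hand2, Isl1 and the second Mef2c start, and in 22.5% of all promoters at least once. GGTGTG, the core of a T-box site, was found once in the windows of Mef2a and the second Mef2c start, and in 18.4% of all promoters. CANNTG, an E-box that reads the same on both strands and can hold a CG in its middle, was found 2 times in the windows of Hand2 and the first Mef2c start and once in those of Isl1, Nkx2-5 and the third Mef2c start, and in 69.0% of all promoters. The other 3 motifs hold no CG. These are matches of letters in a window, and no binding was measured.

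Gene ends were read apart from gene bodies, an end being the outermost 500 bases of the gene with the next 2000 bases beyond it. Of the 20 ends of the 10 genes, 4 had a peak in at least 1 library, while 24.5% of the 43774 ends of all protein-coding genes had one. Where the strand was known, for 7 of the 10 genes, no 5′ end had a peak and 1 of 7 3′ ends had one, that of Hand2. Over the 17492 genes with a strand, 20.5% of the 5′ ends and 27.7% of the 3′ ends had a peak in at least 1 library. For Gata4, Gata6 and Tbx5 no strand was used here, and each of the 3 had a peak at its higher-coordinate end and none at its lower-coordinate end.

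The Tbx5 end was the only 1 of the 4 with a peak in most libraries, 13 of 18. The Gata6 end had a peak in 4 libraries, 1 sham, 1 at 24 h and 2 at 72 h. The Hand2 3′ end had 1 in sham replicate 1 and in 72 h replicate 2, and the Gata4 end had 1 in 72 h replicate 2 alone. A list of 28 other heart transcription factors and cofactors had a peak at 11 of 56 ends (19.6%), so the share for the 10 genes was close to that of their kind. Among markers of cells that heart tissue holds, a peak was found at 2 of 10 ends of cardiomyocyte genes, 4 of 10 of leukocyte genes, 0 of 8 of fibroblast genes and 3 of 6 of endothelial genes. Peak lists hold no expression, so the labelled cell type could not be checked by its markers.

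Of the 38 regions, 29 lay in gene bodies, 4 at gene ends and 5 in the outer flanks. The windows held 5.37 regions per 100 kb, against 7.13 for the windows of all protein-coding genes. A single library gave 15 of the 38 (39.5%, against 29.2% of all regions). At least 9 libraries shared 8 of the 38 (21.1%, against 25.2%), and no region was present in all 18 libraries, against 5.09% of all. Their width ran from 520 to 2411 bases with a median of 1015, and the median of all regions was 1072. The 184 peaks within the windows had a median score of 67.12, against 72.11 for all 862255 peaks, and 15.2% of them reached a score of 100, against 21.7% of all. Most peaks of these genes were thus below a score of 100, and none of the 38 regions was found in every mouse.

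**Figure D2:**
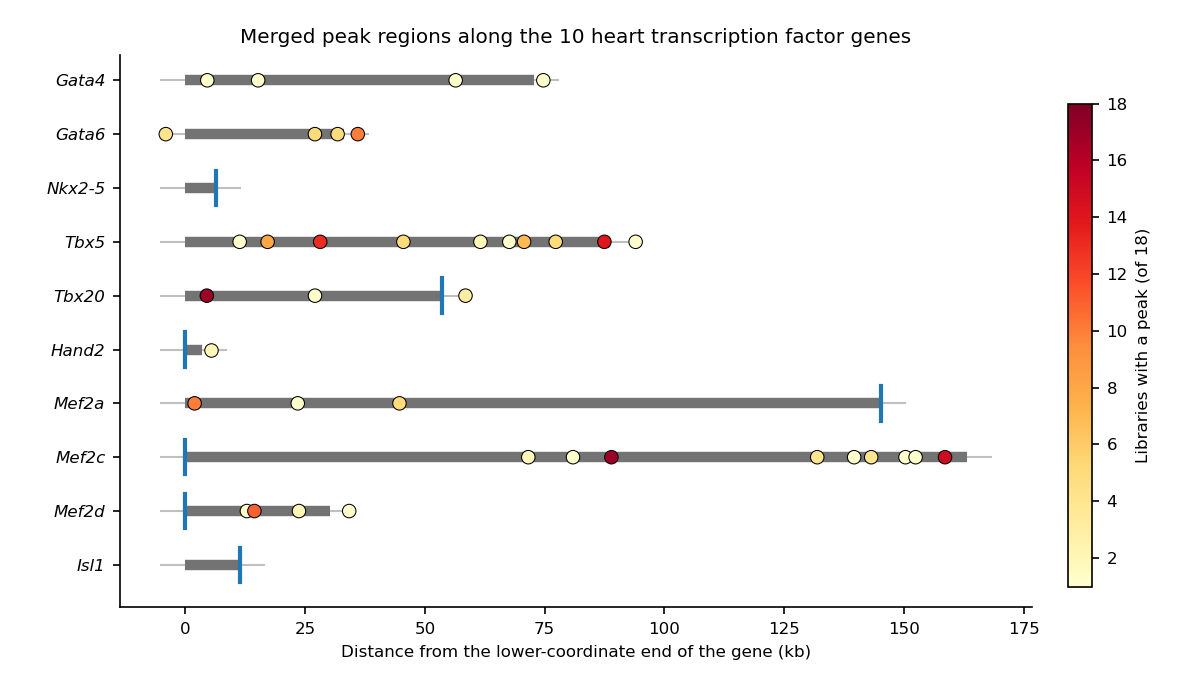
The 38 merged regions (circles) along the 10 genes, with the horizontal axis in kb from the lower-coordinate end of each gene. Thick bars are gene spans, thin lines the flanks of 5000 bases, blue ticks the 5′ end where the strand is known, and the colour gives the number of libraries with a peak, which is 17 for the darkest circles of Tbx20 and Mef2c.

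Peaks were spread unevenly over the 10 genes. Nkx2-5 (chr17:26838664-26844988) and Isl1 (chr13:116298270-116309688) had none in any library, and the peaks nearest to them lay 12.0 kb and 21.7 kb away, each in 1 library. Tbx5 (chr5:119796514-119885220) held 57 peaks in 10 regions and Mef2c (chr13:83504017-83667079) 46 in 9. Gata6 (chr18:11052510-11085636) held 24 peaks, Tbx20 (chr9:24720812-24774303) 20, Mef2a (chr7:67231163-67376456) 16 and Mef2d (chr3:88141941-88172091) 15. Gata4 (chr14:63198914-63271712) held 4 and Hand2 (chr8:57320983-57324517) 2. In every library at least 1 peak lay in the windows of Tbx5, Tbx20 and Mef2c. Exon and intron positions were not analysed here.

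**Figure D3:**
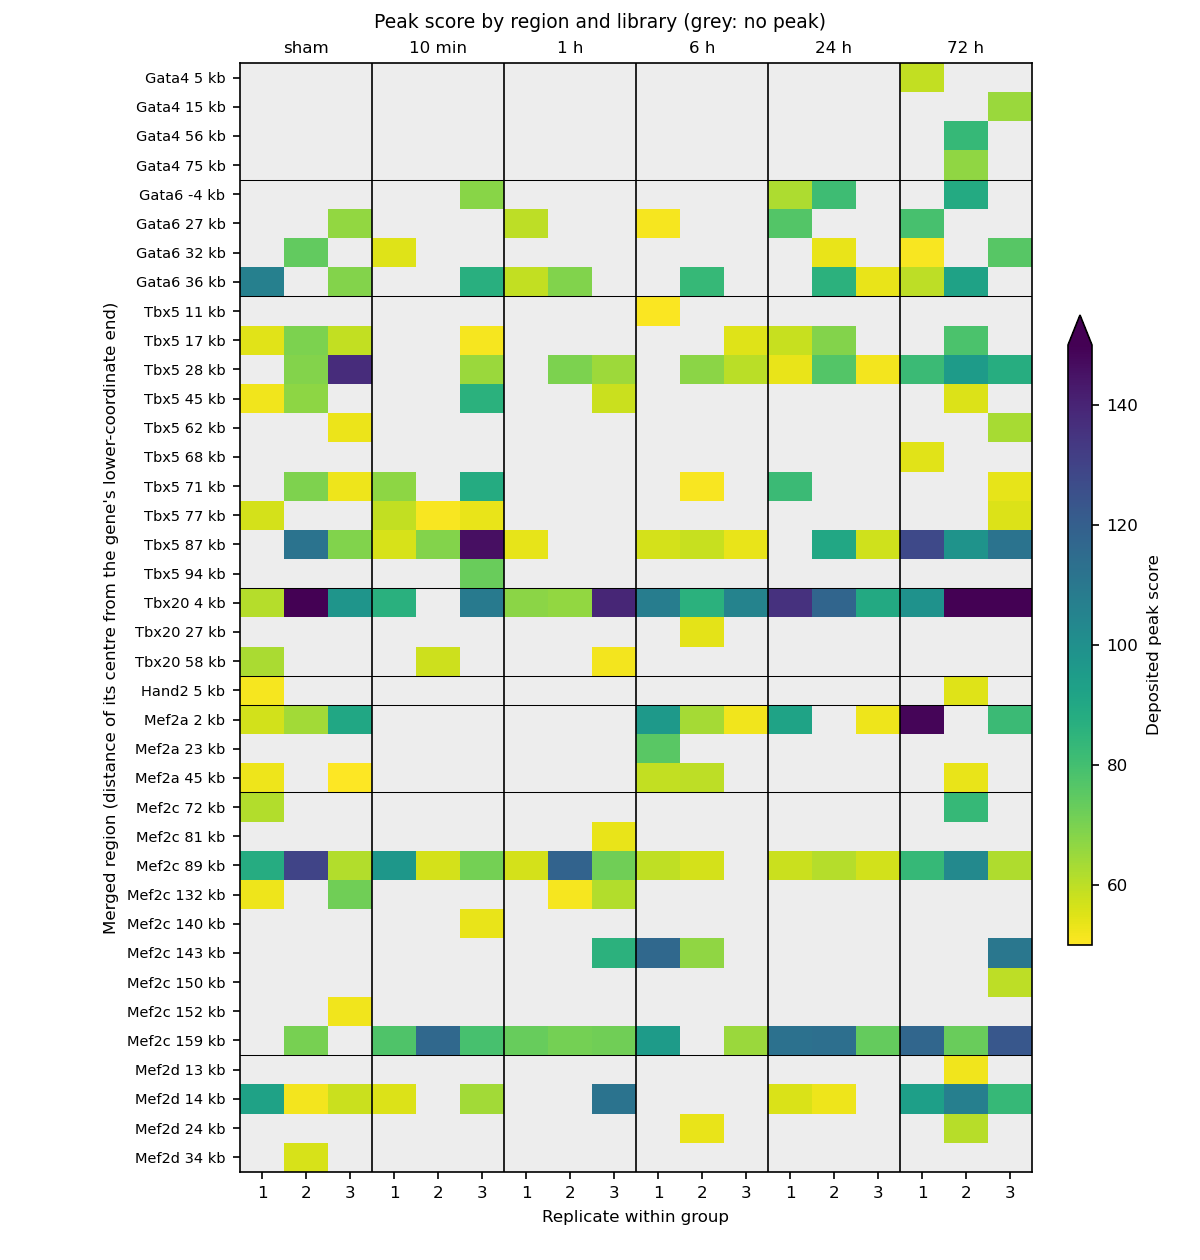
Deposited peak score (colour) in each of the 38 regions (vertical axis, gene and distance in kb from its lower-coordinate end) and 18 libraries (horizontal axis, 3 replicates in each of 6 groups); grey means no peak, and scores above the top of the colour scale share its darkest colour. The Tbx20 region at 4 kb is filled in 17 libraries, the Mef2a region at 2 kb is empty in all libraries at 10 min and 1 h, and the 4 Gata4 regions are filled at 72 h alone.

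The GATA factors differed from each other. Gata4, which drives heart muscle genes together with Nkx2-5 and Tbx5, had no peak in the 15 libraries of the sham group and of the times up to 24 h. All 4 of its peaks were in the 3 libraries at 72 h, and no 2 of them overlapped. Replicate 1 had a peak at chr14:63203078-63203885 (score 59.26). Replicate 2 had the peaks chr14:63255062-63255581 (82.87) and chr14:63273135-63274115 (66.76), and replicate 3 had chr14:63213632-63214558 (65.18). No single Gata4 place was therefore found in more than 1 mouse.

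As a share of the Gata4 window, peaks covered 0.976%, 1.81% and 1.12% at 72 h and 0% elsewhere. The groups did not overlap, which held for 5.85% of the 16063 protein-coding genes tested at that time in this direction. In the limma model over all genes the difference was 1.04 on the log2(bases + 1000) scale (SE 0.179, adjusted p = 0.0402), and limma called 0.0374% of all genes at 72 h. The added 1000 bases set the size of that value, since the sham group is at 0. Gata4 passed the filter on genes with few peaks only through the 72 h group. The other 15 libraries were all at 0, so their replicates gave no spread to the test. The adjusted p was between 0.0724 and 0.321 when any 1 of the other 15 libraries was left out, and without any 1 of the 72 h libraries Gata4 was no longer tested. The 72 h libraries also had the longest peak lists, 56084 peaks on average against 51287 in sham. In lists cut to the same number of top-scoring peaks, 2 of the 4 Gata4 peaks remained, 1 in replicate 2 and 1 in replicate 3.

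Gata6, which overlaps with Gata4 in function, had peaks in 15 of 18 libraries. Its most frequent region, chr18:11088022-11088976 beyond the higher-coordinate end, was present in 10 libraries of all 6 groups, at a mean score of 76.4 ± 17.1 (SD, n = 10 libraries). The share of the Gata6 window under peaks was 2.96% ± 1.71 in sham (SD, n = 3 for every group). In order of time it was 1.72% ± 1.57, 1.32% ± 1.39, 1.23% ± 1.10, 3.79% ± 2.23 and 3.70% ± 0.661 in the MI groups. The libraries with no Gata6 peak were 10 min replicate 2, 1 h replicate 3 and 6 h replicate 3. Each MI group overlapped the sham group, and the smallest adjusted p from limma over the 5 times was 0.892. The region at chr18:11047833-11049001 also lay in Gata6os, a neighbouring gene of the table.

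The homeobox genes Nkx2-5 and Isl1 gave no values to compare, with 0% under peaks in all 18 libraries. Nkx2-5 is the cardiac homeobox factor needed for chamber and conduction system formation. The peak nearest to it scored 52.86 and came from 24 h replicate 3, and that nearest to Isl1 scored 74.97 and came from 72 h replicate 3. Hand2 had 2 weak peaks at the same place, chr8:57325866-57326986 beyond its 3′ end, with scores of 51.18 in sham replicate 1 and 54.94 in 72 h replicate 2. These 3 genes were below the filter of a peak in at least 3 libraries and were not tested.

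Tbx5, the T-box factor mutated in Holt-Oram syndrome, had the most peaks of the 10 genes and the lowest share at 1 h. Peaks covered 2.89%, 6.47% and 5.99% of its window in the sham libraries. At 1 h they covered 0.855%, 0.704% and 2.02%, so all 3 libraries lay below all 3 sham libraries. The 10 min libraries had 3.05%, 2.60% and 6.35%, and the 6 h libraries 2.80%, 4.67% and 4.21%. The 24 h libraries had 2.80%, 3.93% and 2.58%, and the 72 h libraries 3.29%, 4.37% and 6.44%. Each of these 4 groups overlapped sham.

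At 1 h the Tbx5 difference from sham was -1.46 on the log2(bases + 1000) scale (SE 0.329). Its unadjusted p was 0.000288 and its adjusted p 0.42 in limma, so it did not pass the correction over 16063 genes. At 1 h 7.27% of all tested genes lay wholly below sham, and limma called 0.00623% of all genes. The 1 h lists were shorter than those of sham, 44440 peaks on average, and the share over the windows of all protein-coding genes was 2.01% at 1 h and 2.41% in sham. In lists of equal length the difference was -0.67 with an adjusted p of 0.973.

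The Tbx5 region at its higher-coordinate end, chr5:119882765-119885175, was present in 14 libraries and held the highest mean score of the gene, 82.8 ± 31.3 (SD, n = 14). Its scores ran from 53.3 to 145.95, and 2, 3, 1, 3, 2 and 3 libraries of the 6 groups had it, from sham to the last time. The region chr5:119812965-119814385 had a peak in 3 sham libraries, with scores of 54.63, 69.64 and 59.3, and in none at 1 h. Of the other MI groups, 1, 1, 2 and 1 libraries had it in order of time, and it also lay within Gm5563, another gene of the table. Its sham scores were near the lowest of the lists, and with lists of equal length 1 of the 3 sham peaks remained. The region chr5:119873213-119874406, named after its values were seen, was present in all 3 libraries at 10 min with scores of 59.04, 50.88 and 53.28, in 1 sham library and in 1 at 72 h. None of its peaks remained in lists of equal length.

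Tbx20, a T-box factor needed for cardiomyocyte identity in the adult heart, held a peak in nearly every mouse. The region chr9:24724682-24725887 lies in the gene body 4.47 kb from the 3′ end and was present in 17 of 18 libraries, missing from 10 min replicate 2. Its mean score of 117 ± 48.8 (SD, n = 17) was the highest of the 38 regions. The sham libraries scored 60.99, 194.41 and 97.73, the other libraries at 10 min 86.43 and 108.72, and those at 1 h 67.27, 66.02 and 139.38. The 6 h libraries scored 107.48, 86.06 and 105.21, the 24 h libraries 135.84, 117.28 and 89.2, and the 72 h libraries 99.08, 232.94 and 194.5. The 3 highest scores thus came from 1 sham library and 2 libraries at 72 h, and the range of the sham group covered that of every group but 72 h.

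Peaks covered between 0.518% and 3.06% of the Tbx20 window in all 18 libraries. The group means ran from 1.19% ± 0.592 at 10 min to 1.98% ± 0.863 at 6 h, with 1.33% ± 0.187 in sham (SD, n = 3 each). No time differed from sham in limma, where the smallest adjusted p was 0.914.

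Among the Mef2 genes, Mef2a, needed for mitochondrial and myofibril integrity in the heart after birth, had peaks in sham and at the later times and none at 10 min and 1 h. Its peaks covered 1.31%, 0.560% and 1.27% of the window in sham. At 10 min and 1 h all 6 libraries were at 0%. The 6 h libraries had 2.17%, 1.23% and 0.660%, the 24 h libraries 0.586%, 0% and 0.525%, and the 72 h libraries 0.563%, 0.488% and 0.651%. Sham lay above every library of the first and second times and overlapped the groups of the later times.

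The Mef2a difference from sham was -1.36 at both times on the log2(bases + 1000) scale (SE 0.331). The unadjusted p of 0.000616 became 0.57 at 10 min and 0.463 at 1 h after adjustment in limma, and 0.0% of all genes were called at 10 min. Mef2a was 1 of the genes lying wholly below sham, which were 5.35% of all tested genes at 10 min. The 10 min lists held 44457 peaks on average, fewer than in sham. In lists of equal length the difference was -0.31 at both times. The 6 libraries were at 0 there too, which is fixed in advance, since cutting a list adds no peak.

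Most of the Mef2a signal came from 1 place, chr7:67232423-67233743, which lies 1.92 kb inside the 3′ end of the gene. All 3 sham libraries had a peak there, none of the 6 libraries at 10 min and 1 h, all 3 at 6 h, and 2 of 3 at each later time. The sham peaks scored 56.89, 63.8 and 90.32 and the 6 h peaks 95.95, 63.66 and 52.26. Peaks of 91.8 and 52.7 were found after 24 h and of 148.81 and 81.8 after 72 h. It was the only 1 of the 38 regions with an unadjusted p under 0.05 in the exact permutation test of presence over the 6 groups (p = 0.0226, adjusted p = 1). Of all 152196 regions, 1565 (1.03%) had an unadjusted p under 0.05 in this exact test, and 0.0% passed the adjustment. A region with a peak in 1 library, as 29.2% of all regions were, cannot have a p under 0.05 in this test. With 3 libraries in a group, its smallest possible p is far above what the adjustment asks of a single region. The 0.0% therefore does not show that no region differed. In lists of equal length the region was present in 1, 0, 0, 3, 1 and 2 libraries of the 6 groups in order of time. In those lists 0 of the 38 regions had an unadjusted p under 0.05 in the exact test, this one included. With peaks of a score of at least 100 alone the count was also 0. This region then had a peak in 1 library, where the test cannot give a p under 0.05, so that count decides nothing for it. With all peaks, leaving out any 1 library gave an exact p between 0.00874 and 0.0448 for this region. The region was singled out by its p in these same libraries, so this range is no independent support. The count of regions with an unadjusted p under 0.05 rose to 4 without sham replicate 2, and to 2 without sham replicate 1 or 3, 1 h replicate 1 or 3, or any 1 of the 72 h replicates. The share over all regions was not computed with a library left out, so nothing is read from this rise.

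Mef2c, needed for looping of the embryonic heart, had peaks in all 18 libraries and none centred nearer than 71.6 kb to its 5′ end. Its 2 most frequent regions are named after their values were seen. The first, chr13:83592414-83593461, was present in 17 libraries, missing from 6 h replicate 3, with scores from 56.38 to 129.33, and it also lay in Gm52043. The other, chr13:83661752-83663400, 159 kb from the 5′ end and also in Gm52044, was present in 15. It had a peak in 1 of 3 sham libraries, in 2 of 3 at 6 h and in all 3 at each of the other 4 times, and its 15 peaks all remained in lists of equal length. Its exact permutation p over the groups was 0.338 before adjustment. The 1 sham peak, in replicate 2, scored 70.68, close to the lowest score kept for that library in lists of equal length, 70.26. Without sham replicate 2 the exact permutation p was 0.0294, and the region met the rule for a gained region at every time except 6 h. That library held the only sham peak of the region, so leaving it out takes sham to no peak by construction. The share over all regions was not computed for this setting, and nothing is read from this p or these gains. The highest mean score among the Mef2c regions was 94.7 ± 22.9 (SD, n = 4), at chr13:83646721-83647615, present in 1 library at 1 h, 2 at 6 h and 1 of the 72 h group.

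Peaks covered 1.24%, 1.08% and 1.37% of the Mef2c window in sham and 0.741%, 0.816% and 0.719% at 24 h, and these groups did not overlap. This was so, in this direction, for 5.42% of all tested genes at 24 h. The difference was -0.43 on the log2(bases + 1000) scale (SE 0.323, adjusted p = 0.969 in limma, 0.0% of genes called). At the other 4 times Mef2c overlapped sham, with values from 0.392% at 6 h to 2.39% at 1 h.

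Mef2d, known for its part in the response of the heart to pressure load, was covered over 1.60%, 3.65% and 2.34% of its window in sham. In order of time, 1, 2, 2, 1 and 0 libraries of the MI groups were at 0%, and the 72 h values were 1.86%, 5.97% and 3.04%. All groups overlapped sham, and the smallest adjusted p in limma was 0.794. Its main region, chr3:88155607-88157074, lies 14.4 kb from the 5′ end and had scores of 92.51, 51.9 and 58.01 in sham. It was present in 3, 2, 1, 0, 2 and 3 libraries of the 6 groups in order of time, and so was absent at 6 h. The 6 h lists were the shortest, with 42620 peaks on average. With lists of equal length 2 of the 3 sham peaks remained.

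**Figure D4:**
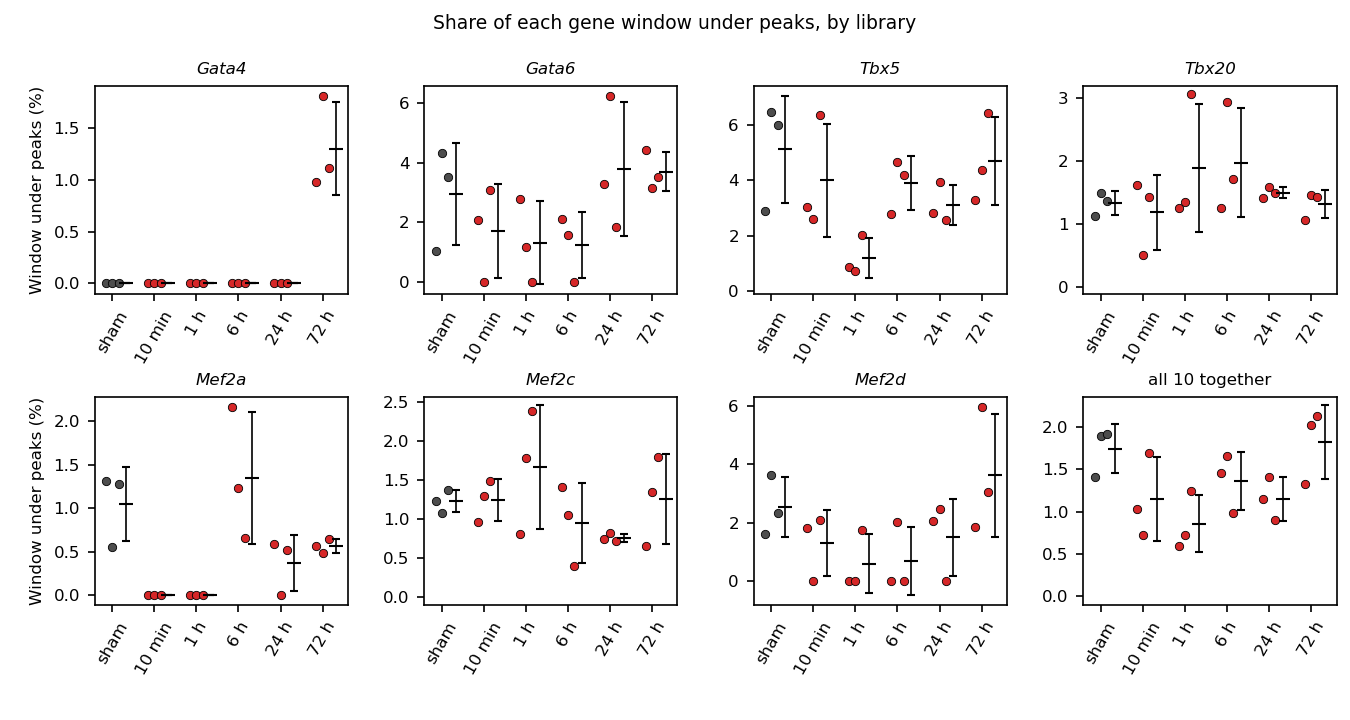
Percent of each window under peaks (vertical axes) in every library (circles, sham in grey and MI in red) by group, with the group mean and SD of 3 libraries beside them, for the 7 genes tested and for all 10 windows together. Gata4 is above 0 at 72 h alone, Mef2a is at 0 in all 6 libraries at 10 min and 1 h, and Tbx5 is lowest at 1 h.

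By the rule that a region is lost when all 3 sham libraries and no library of a time have a peak, Mef2a lost 1 region at 10 min, where 0.624% of all regions were lost. Mef2a and Tbx5 lost 1 region each at 1 h, where 0.553% of all were, and Mef2d lost 1 at 6 h, where 0.706% were. None of the 38 was lost at 24 h (0.524% of all) or 72 h (0.397%). None was gained at any time, meaning present in all 3 libraries of a time and in no sham library. Of all regions 0.216%, 0.225%, 0.201%, 0.393% and 0.719% were gained at the 5 times in order. With lists of equal length, none of the losses at 10 min, 1 h and 6 h met the rule, because at least 1 sham peak fell below the limit. Without sham replicate 2 the losses rose to 3 at 10 min and 2 at 6 h, and 2 were found at 24 h and 1 at 72 h. Without 10 min replicate 3 there were 2 losses at 10 min, and without sham replicate 3 or 6 h replicate 3 there were 2 at 6 h. Without sham replicate 3 there was 1 at 24 h, and without 72 h replicate 2 there was 1 at 72 h. The losses of Mef2a at 10 min and 1 h, Tbx5 at 1 h and Mef2d at 6 h remained whichever library was left out. The rule fixes this in advance, so it says nothing about their stability. Single gains appeared without sham replicate 1 at 10 min (Tbx5), without 6 h replicate 3 at 6 h (Mef2c) and without 24 h replicate 3 at 24 h (Gata6), beside the Mef2c region named above. In each case the library left out was the only library that broke the rule, so nothing is read from these gains.

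Of the 7 genes tested with limma, none was called at the first 4 times, where 0.0%, 0.00623%, 0.0% and 0.0% of all 16063 genes were. At 72 h the call was Gata4 alone, against 0.0374% of all genes. Gata4 entered the test only through its 72 h libraries, and the call was lost in each fit that left out another library, so nothing is read from this count. Unadjusted p-values under 0.05 were found for Mef2a at 10 min, for Mef2a and Tbx5 at 1 h, for 0 genes at 6 h, for Mef2a at 24 h and for Gata4 at 72 h. Of all 16063 genes, 874, 858, 1007, 796 and 975 had such a p at the 5 times. By groups that did not overlap sham, none of the 7 was higher at 10 min (2.22% of all genes), 1 h (1.65%), 6 h (2.23%) or 24 h (2.7%). None was lower at 6 h (5.53%) or 72 h (3.01%). The median difference of the 7 from sham was -0.31, -0.55, -0.29, -0.37 and -0.01 at the 5 times on the log2(bases + 1000) scale. Over all 16063 genes the medians were -0.08, -0.12, -0.10, -0.05 and 0.06. In the F test over all groups 0 of the 7 were called, and 0.0249% of all genes were. In this test 3 of the 7 had an unadjusted p under 0.05 (Gata4, Mef2a and Tbx5), as had 1135 of all 16063 genes. Gata4 entered the F test, too, only through its 72 h libraries, so nothing is read from the count of 3.

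With the 15 MI libraries pooled, the exact permutation test against the 3 sham libraries had 816 assignments and called 0 of the 7 genes and 0.0% of all. Its smallest possible p is 0.00123, so a gene can pass the adjustment only if many genes reach that p together. The 0.0% therefore does not show that no gene differed. Of all genes 773 had an unadjusted p under 0.05, and none of these was among the 7. Mef2a had 1.05% of its window under peaks in sham and 0.458% in MI (exact p = 0.136). Tbx5 had 5.12% and 3.38% (exact p = 0.14). The adjusted p was 1 for each of the 7. The unadjusted exact p of Tbx5 was 0.0368 without sham replicate 1, and that of Mef2a 0.0147 without 6 h replicate 1, and neither passed the adjustment (0.749 and 1). With a library fewer the smallest possible p is larger still, so the adjustment decides nothing for these values.

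The other heart factors, a list of 28 genes of which 20 passed the filter, gave no call at any time. Unadjusted p-values under 0.05 were found for 1, 0, 1, 2 and 1 of the 20 at the 5 times, and their median differences were -0.15, -0.06, -0.07, -0.13 and 0.12. The 10 windows together had 1.74% ± 0.289 of their length under peaks in sham (SD, n = 3 for every group), and 1.15% ± 0.491, 0.856% ± 0.339, 1.36% ± 0.344, 1.15% ± 0.257 and 1.83% ± 0.435 in the MI groups in order of time. Over all protein-coding windows the means of the 6 groups were 2.41%, 2.14%, 2.01%, 2.10%, 2.20% and 2.61%, so both were lowest at 1 h. In lists of equal length the 10 windows differed from sham by -0.0425, -0.242, 0.0107, -0.216 and 0.484 percentage points at the 5 times. The small difference at 72 h of 0.0841 points turned to -0.0824 without sham replicate 1, and to -0.0153 and -0.0658 without 72 h replicates 2 and 3, and it reached 0.334 without 72 h replicate 1. Without sham replicates 2 and 3 it was 0.161 and 0.174. The difference at 10 min went from -0.593 to -0.381 without 10 min replicate 2, and that at 6 h from -0.379 to -0.189 without 6 h replicate 3. The protein-coding genes whose share under peaks, relative to all genes, ran most like that of the 10 windows over the 18 libraries were Gucy2c (Spearman rho 0.775), AW209491 (0.774), Prdm6 (0.767), Gfap (0.739) and Mrps28 (0.736), the highest of 12411 compared. The highest of so many values over 18 libraries can be large without any link between the genes. No test was made, and no link to the 10 genes is read from them.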

How the data were processed

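MeDIP-seq peak lists of 18 mouse heart libraries, 3 in each of 6 groups, were used as deposited. Alignment with Bowtie2, peak calling with MACS2 and the build mm10 are named in the submitters' processing notes; versions, options and input control are not given in the sources used here. Each library has its own list of chromosome, start, end, name and a score per peak. The deposited score has no stated scale and no value below 50. Read counts were not used, so sequencing depth is unknown and no counting interval is given. The lists held 34255 to 60653 peaks.

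Peaks from the 18 lists that shared 1 base or more were joined into regions, and a library counted as present in a region with 1 peak of any overlap. A region that reached past a window was kept whole. Gene spans came from RefSeq (GRCm38.p6), the same assembly as mm10. For each protein-coding gene the bases under peaks within the span and 5000 bases on each side were summed. Genes with a peak in at least 3 libraries (16063, of them 7 of the 10) were tested on log2(bases + 1000) with limma 3.58.1 (R 4.3.3, eBayes with trend, all 18 libraries in 1 model), with Benjamini-Hochberg adjustment at 0.05. Such a difference understates the change of genes with few bases under peaks. The 15 MI and 3 sham libraries were compared by a two-sided exact permutation test, whose smallest possible p is 0.00123. With 3 against 3 the smallest is 0.1, so no time was tested in this way. Presence over groups was tested with an exact permutation test of the sum of squared group counts. The p-values measure the spread between these mice. Scripts were tested on simulated data (python 3.11.15, scipy 1.17.1).

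The 10 genes and the lists were chosen with earlier results of these data known. All 10 genes were described, with each region present in all libraries, gained or lost, at a gene end in at least 6 libraries, or highest in mean score for its gene. Replicate numbers were not used as pairs in the main model. None of 45 same-number correlations was over 0.1 (highest 0.0883), and none of 90 different-number correlations was (highest 0.0891). These values cannot exclude a batch shared by number. Alternatives were other pseudocounts, filters and flanks, scores of at least 100, equal numbers of top-scoring peaks (34255 in each list), regions at least 50% covered, other gene-end limits, a replicate block and leaving out each library.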

Additional observations from a re-analysis of the deposited data

Results flagged for a closer look

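Gata6 was the only 1 of the 7 genes tested for which all 3 libraries of one time lay above the sham mean and all 3 of another lay below it. The sham mean was 2.96% of the window under peaks. At 72 h the lowest of the 3 libraries was at 3.15%, while at 1 h the highest was at 2.77% and at 6 h at 2.13%. The 72 h mean exceeded the 1 h mean by 2.38 percentage points and the 6 h mean by 2.46. The difference between the times was not tested, and the sham libraries themselves ran from 1.04% to 4.32%. All pairs of times were searched, and the share of all tested genes that meet the same rule was not computed. Nothing particular to Gata6 is therefore read from this count. The 72 h lists held more peaks (56084 on average) than those at 1 h (44440) and 6 h (42620), and the part of list length in the difference was not tested.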

How the results depend on the processing

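Over all alternatives, 463 recomputed counts and differences that answer a comparison stayed close to the value reported (counts within 1.5 times, differences within 1 SD), and 83 did not. Many of the 463 could not move, such as a difference from sham when a library of another time was left out. Others were counts of 0 in exact tests that can hardly pass the adjustment, or losses fixed by the rule. The 463 is therefore no measure of stability. Beside the 0, 1, 0, 0 and 6 genes that limma called at the 5 times and the 4 of the F test, no filter on genes with few peaks gave 4, 6, 4, 6, 18 and 31, and a score of at least 100 gave 4, 6, 7, 6, 18 and 25. Equal numbers of top-scoring peaks gave 1 at 10 min, 0 at 1 h and 2 at 72 h. A pseudocount of 200 bases gave 2 at 1 h and 9 in the F test, and one of 5000 bases gave 0 at 1 h. Genes with a peak in at least 9 libraries gave 0 at 72 h and 0 in the F test. A flank of 2000 bases gave 2 at 1 h, 13 at 72 h and 13 in the F test, and the span alone gave 1 at 6 h and 11 in the F test. The replicate block gave 0 at 1 h and 4 at 72 h, and Gata4 at 72 h then had an adjusted p of 0.0845. No pairing of animals by replicate number is given in the labels, and 6 of 18 libraries correlated best with libraries of their own number. Whether libraries of the same number shared a batch is not known.

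Gata4 at 72 h was not tested with a score of at least 100, with equal numbers or with the filter of 9 libraries, and its adjusted p was between 2.3e-05 and 0.0483 under the other pseudocounts, flanks and no filter. These p-values say nothing about stability, because Gata4 entered the test only through its 72 h libraries and the other 15 libraries were all at 0. The Mef2a difference at 24 h turned from -0.76 to 0.0048 with equal numbers. Regions lost at 10 min, 1 h and 6 h fell to 0 with a score of at least 100 and with equal numbers, those at 6 h to 0 where 50% of a region had to be covered, and 1 was lost at 24 h with equal numbers. Gene ends with a peak were 2 with 1000 bases outside, 2 by peak midpoint, 1 with a score of at least 100 and 2 with equal numbers. The share of the 10 windows under peaks differed from sham by -0.0979, -0.149, -0.144, -0.112 and 0.246 in order of time with a score of at least 100, where all peaks gave -0.593, -0.885, -0.379, -0.59 and 0.0841. With equal numbers it differed by -0.0425, -0.242, 0.0107, -0.216 and 0.484 at the 5 times. The cause of these shifts was not tested.

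Leaving out 1 library gave 0 to 1 genes at 1 h, 1 to 5 at 72 h and 0 to 6 in the F test. Fewer genes were called at 72 h without sham replicate 1 (1), sham replicate 3 (3) or any 1 of the 72 h replicates (1). Without a library, 0 to 1 of the 38 regions were gained at each time, and 1 to 3 were lost at 10 min, 2 to 3 at 1 h, 1 to 2 at 6 h, 0 to 2 at 24 h and 0 to 1 at 72 h. With 1 library fewer the rule asks for fewer libraries, so it is easier to meet. The lists hold no read counts, so what depth limits could not be given.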
